A study of Homo sapiens with 9 samples.

Results

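ATF4, ATF3, ATF5, DDIT3, CEBPB, TRIB3, PPP1R15A, ASNS, CHAC1 and VLDLR are 10 genes of the integrated stress response or linked to it, and they are described here in HCT-116 cells, an established human colon cancer cell line. They were taken by gene name, as 10 of the 32449 genes listed in either deposited gene table. The genes were chosen by their normalized reads in ORF with NC, so their values in that comparison are a description, given without p-values. In ORF cells a reading frame of the noncoding RNA gene LINC00266-1 was stably expressed. The cells labelled MT had, by their label, a construct of the 5' UTR and the same reading frame whose start codon was mutated. NC cells carried a blank vector. Each group had 3 RNA-seq libraries, with 19.5 to 22.3 M recovered reads in ORF, 20.4 to 24.4 M in MT and 20.4 to 23.4 M in NC. No label says whether replicates were separate cultures or clones, so p-values here cover nothing beyond library-to-library spread, which may be technical.

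In the integrated stress response, kinases that sense unfolded proteins, missing amino acids, missing haem or viral RNA phosphorylate the initiation factor eIF2alpha. Most protein synthesis then slows, while the mRNAs of ATF4, ATF5, DDIT3 and PPP1R15A are translated better because of short upstream reading frames. ATF4 and CHOP (the product of DDIT3) are basic leucine zipper factors that bind, often with C/EBP partners, to composite C/EBP-ATF elements in genes for amino acid supply, redox balance and feedback control. In colon cancer cells the pathway is known for its response to nutrient shortage and to stress of the endoplasmic reticulum.

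By the files' GRCh38 annotation the bZIP factor genes lie at chromosome 22, 39519695 to 39522685 (ATF4), chromosome 1, 212565334 to 212620777 (ATF3), chromosome 19, 49928702 to 49933935 (ATF5), chromosome 12, 57516588 to 57521737 (DDIT3) and chromosome 20, 50190734 to 50192689 (CEBPB). The feedback regulators lie at chromosome 19, 48872392 to 48876057 (PPP1R15A) and chromosome 20, 362835 to 397559 (TRIB3). CHAC1 lies at chromosome 15, 40952962 to 40956519, ASNS at chromosome 7, 97852118 to 97872542 and VLDLR at chromosome 9, 2621834 to 2660053. DDIT3 and ASNS are on the minus strand and the others on the plus strand.

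The promoters were searched for such elements on both strands, in the window from 250 bases before to 50 bases after each RefSeq start site (build GRCh38.p14). All 10 genes were matched by symbol, with 19 windows in all. TGATGNAAN, the composite element, was found in 3 of the 19 windows and in 3.61% of 35116 windows of all genes. TGACGTCA, the full cAMP response element that ATF dimers bind, was found in 1 of the 19 and in 1.85% of all windows. A match is a description of the letters and not evidence of binding. Distances refer to RefSeq start sites, and the ASNS and CHAC1 matches lie inside the gene spans given above. The 4 matches are shown in the direction of the gene with 10 bases on each side, and the capitals mark the motif.
ATF3, chr1:212565206-212565234, plus strand, 191 bases before the start: aaggtcaggaTGATGGAAGgctgtcatat
ASNS, chr7:97872458-97872486, minus strand, 68 bases before the start: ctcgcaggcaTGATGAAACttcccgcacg
CHAC1, chr15:40953251-40953279, plus strand, 210 bases before the start, motif on the opposite strand: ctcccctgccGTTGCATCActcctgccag
PPP1R15A, chr19:48872353-48872380, plus strand, 58 bases before the start: cctctcttcgTGACGTCAgcacgccggg

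Reads per library below are normalized reads: reads divided by a size factor (median of ratios over all 9 libraries), so that libraries of all 3 groups share 1 scale. Errors are SD with n = 3 libraries unless SE is written. Log2 fold changes come from limma on log2(normalized value + 1), a scale on which changes of weakly expressed genes come out too small. As HCT-116 was sequenced in bulk, fewer cells with a transcript and less of it per cell cannot be told apart. Of 7 colon epithelial markers, EPCAM, KRT8, KRT18, CDH1 and CDX2 were abundant in all groups, whereas VIL1 and LGALS4 had 4 to 11 reads per group. Markers of other cell types summed to 15.0 to 17.3 normalized reads per library in ORF, 4.84 to 15.9 in MT and 6.40 to 18.5 in NC, and the blood cell markers PTPRC and CD3E had 0 reads in every library.

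ATF4, the factor at the head of the transcriptional arm, was the most abundant of the 10 genes. It had 13740.5, 10259 and 12758.5 normalized reads in ORF, 9482, 9860.1 and 8800.45 in MT, and 8767, 9003 and 7776 in NC. Every ORF library lay above every MT and every NC library, while MT and NC overlapped. The difference was small: the log2 fold change was 0.51 ± 0.14 (SE) for ORF with NC, a 1.43-fold difference, and 0.38 ± 0.16 for ORF with MT. Per kb of transcript ATF4 held 4874 ± 714 normalized reads in ORF, 3731 ± 214 in MT and 3387 ± 259 in NC, more than any other of the 10 genes in each group.

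Splice reads of ATF4 showed a form that was nearly confined to ORF. The exon at chromosome 22, 39521354 to 39521671 (GRCh38, 318 bases), holds the annotated start codon (39521446 to 39521448) in ATF4-202 and ATF4-203 of GENCODE 29, and in ATF4-201 the same bases are part of a longer exon. Reads that skip this exon numbered 32, 22 and 25 in the ORF libraries, 1, 0 and 0 in MT and 2, 1 and 0 in NC. No ORF library overlapped with MT or NC. The 79 reads in ORF were 31.6 times the 3 reads in NC after scaling by the size factors (95% counting interval 10.4 to 157) and 93.8 times the 1 read in MT (interval 16.4 to 3752). The skip reads were few beside the 32796 reads of the ATF4 gene row in ORF. The separate inclusion reads of this exon could not be recovered from the deposited table, and no test was made. The intron upstream of it showed a different layout: unscaled spliced reads summed to 8352 in ORF, 7909 in MT and 7581 in NC, against 817, 1012 and 972 reads of the kept intron. After scaling, the spliced form differed 1.32-fold between ORF and NC (95% counting interval 1.28 to 1.36). The kept form was at 1.01-fold (interval 0.918 to 1.11).

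ATF3, a factor that ATF4 and other stress pathways induce, had the largest fold change of the 10 genes. It had 2206, 1722 and 2432 normalized reads in ORF, 447, 465 and 372 in MT, and 323, 333 and 289.9 in NC. All ORF libraries lay far above both other groups, and all MT libraries lay above all NC libraries. The log2 fold change was 2.73 ± 0.15 (SE) for ORF with NC, a 6.63-fold difference, and 2.30 ± 0.17 for ORF with MT. ATF3 also differed between MT and NC by 0.44 ± 0.13 on the log2 scale (1.36-fold), with an unadjusted p of 0.00454 and an adjusted p of 0.744 in limma, so this difference did not pass the threshold over all genes.

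A stretch of 87 bases of ATF3, the length of 29 codons, was read either as exon or as intron. It lies at chromosome 1, 212615061 to 212615147 (GRCh38). Of 9 coding ATF3 transcripts in GENCODE 29, 5 keep it as exon and 1, ATF3-201, splices it out. Its edges are shown from the transcript sequence, with the flanking exon bases in capitals.
ATF3 5' splice site, chr1:212615058-212615066: GAAgtgagt
ATF3 3' splice site, chr1:212615128-212615150: acctgacgccctttgtcaagGAA
Spliced reads across these edges numbered 39, 23 and 28 in the 3 ORF libraries, 0, 1 and 0 in MT and 0, 0 and 2 in NC. Reads of the kept form numbered 283, 154 and 256 in ORF, 68, 68 and 55 in MT, and 41, 36 and 52 in NC. The kept form thus differed in step with the gene, 6.45-fold between ORF and NC (95% counting interval 5.34 to 7.85) against 6.70-fold for the ATF3 gene row by the same scaling. The spliced form differed by more: 90 reads in ORF were 54.0 times the 2 reads in NC (interval 14.5 to 453). The level of the kept form was 0.827 ± 0.0225 in ORF, 0.992 ± 0.0131 in MT and 0.981 ± 0.0332 in NC. In limma the change in log2 odds for ORF with NC was -2.74 ± 0.67 (SE). It did not pass the threshold and is only a description. For MT with NC the event was outside the limit on the overall level. Without that limit the change was 0.82 ± 0.79 (SE, limma adjusted p = 1.00).

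DDIT3, which encodes CHOP, the factor tied to cell death in prolonged stress, separated ORF from both other groups. It had 566, 439.9 and 637 normalized reads in ORF, 125, 132 and 122 in MT, and 134, 133 and 117 in NC. The lowest ORF library lay above the highest library of MT and of NC, and MT and NC overlapped. The log2 fold change was 2.07 ± 0.17 (SE) for ORF with NC, a 4.2-fold difference, and 2.09 ± 0.18 for ORF with MT. For MT with NC it was -0.01 ± 0.15 (limma adjusted p = 0.987).

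The difference in DDIT3 reads was not shared evenly by its splice forms. The intron behind its exon at 57517706 to 57517753 starts at 57517705 on chromosome 12 (GRCh38, minus strand) and has 4 deposited 3' ends, which give introns of 110, 163, 267 and 281 bases. The sites are shown because the forms are told apart by them, with exon bases in capitals and intron bases in lower case, read from GENCODE transcript DDIT3-205, which keeps the intron.
DDIT3 5' splice site, chr12:57517700-57517708: CAGgtaaac
DDIT3 3' splice site, intron of 110 bases, chr12:57517593-57517615: cttcatctctgccactgtagCAC
DDIT3 3' splice site, intron of 163 bases, chr12:57517540-57517562: cagatgtggctgtattccagTAC
DDIT3 3' splice site, intron of 267 bases, chr12:57517436-57517458: cactccccattatcctgcagATG
DDIT3 3' splice site, intron of 281 bases, chr12:57517422-57517444: ctgcagatgtgcttttccagACT
In the annotation the 267-base and 281-base forms (DDIT3-201, DDIT3-202 and DDIT3-206) start translation at 57517404 to 57517406 and encode 169 codons. The forms that keep the intron or splice to the nearest end (DDIT3-205 and DDIT3-204) start at 57517473 to 57517475, inside the longer introns, and encode 192 codons.

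Reads spliced over the 267-base intron numbered 419, 312 and 395 in ORF, 74, 75 and 92 in MT, and 75, 72 and 68 in NC. Reads of the kept intron in the same event numbered 64, 43 and 76 in ORF, 46, 61 and 50 in MT, and 39, 63 and 61 in NC. Before scaling, the spliced reads of ORF lay far above both other groups, while the kept reads of all 3 groups overlapped. After scaling, the spliced form differed 6.29-fold between ORF and NC (95% counting interval 5.43 to 7.31) and 5.55-fold between ORF and MT, and the kept form 1.35-fold (interval 1.09 to 1.68) and 1.38-fold. The level of the kept intron was 0.0545 ± 0.00900 in ORF, 0.190 ± 0.0321 in MT and 0.213 ± 0.0485 in NC.

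The 281-base intron had the same layout. Spliced reads numbered 121, 85 and 119 in ORF, 12, 12 and 11 in MT, and 22, 12 and 16 in NC, and kept reads 75, 61 and 96 in ORF, 50, 68 and 53 in MT, and 43, 68 and 66 in NC. The spliced form differed 7.80-fold between ORF and NC (interval 5.78 to 10.7) and the kept form 1.57-fold (interval 1.29 to 1.92). Kept-intron levels were 0.198 ± 0.0208 in ORF, 0.626 ± 0.0359 in MT and 0.552 ± 0.133 in NC, so ORF lay below both other groups without overlap. These events share their reads, since all forms start at 1 splice site, and they are not independent of each other.

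Part of the kept intron lies opposite another gene. MARS, a tRNA synthetase gene on the plus strand, ends at 57517569 and thus reaches into DDIT3, and it held 5534 to 7647 reads per library in ORF, 5373 to 6765 in MT and 5523 to 6912 in NC. The sources used here do not give whether reads were counted by strand, so over that stretch reads of both genes cannot be told apart. The stretch between 57517596 and 57517705, the 110-base intron, lies outside MARS. Its kept reads summed to 125 in ORF, 89 in MT and 100 in NC, 1.50-fold between ORF and NC (interval 1.14 to 1.97), well under the 4.27-fold of the DDIT3 gene row by the same scaling.

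**Figure D1:**
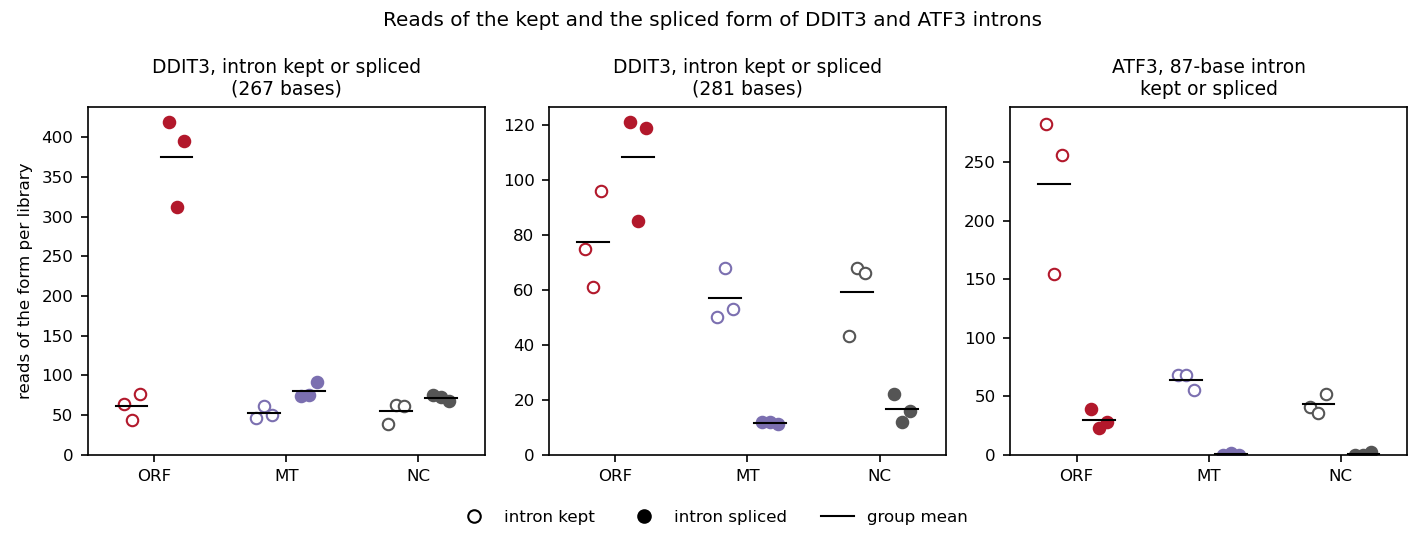
Reads per library (y axis) of the kept form (open circles) and of the spliced form (filled circles) for 2 DDIT3 introns and 1 ATF3 intron in ORF, MT and NC, with the group mean as a line; each panel has its own scale. Reads are not scaled by size factors. Spliced DDIT3 reads of ORF, 312 to 419 and 85 to 121, lie above those of MT and NC while the unscaled kept reads overlap between groups. After scaling, kept DDIT3 reads of ORF were 1.35 times (267-base intron) and 1.57 times (281-base intron) those of NC. Spliced ATF3 reads reach 23 to 39 in ORF and at most 2 in the other groups.

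ATF5, a further factor translated under stress, gave unequal ORF libraries. It had 854, 411 and 802 normalized reads in ORF, 371, 472 and 385 in MT, and 396, 428 and 322 in NC. ORF replicates 1 and 3 lay above all other libraries, but ORF replicate 2 fell inside the range of MT and NC. The log2 fold change for ORF with NC was 0.79 ± 0.25 (SE), and without ORF replicate 2 it was 1.12. CEBPB, the usual C/EBP partner of these factors, did not follow them: it had 1638, 1102 and 1293 normalized reads in ORF, 1282, 1733 and 1339.6 in MT, and 1242, 1550.1 and 1309 in NC. All 3 groups overlapped, and the log2 fold change for ORF with NC was -0.04 ± 0.16 (SE).

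The feedback regulators differed in size. PPP1R15A, also called GADD34, directs protein phosphatase 1 to eIF2alpha and so ends the response. It had 3647, 2331 and 3605 normalized reads in ORF, 1029, 1195 and 992 in MT, and 967, 997 and 804 in NC. All ORF libraries lay above both other groups, and the log2 fold change was 1.76 ± 0.18 (SE) for ORF with NC, a 3.40-fold difference, and 1.55 ± 0.19 for ORF with MT. TRIB3, a pseudokinase that binds ATF4 and CHOP and restrains them, had 3072, 1647 and 2682 normalized reads in ORF, 1360.1, 1919 and 1138 in MT, and 1476, 1469 and 1107 in NC. All ORF libraries lay above NC, but ORF replicate 2 lay below MT replicate 2. Its log2 fold change was 0.83 ± 0.21 for ORF with NC and 0.73 ± 0.25 for ORF with MT.

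CHAC1, an enzyme that degrades glutathione and a marker of ATF4 activity, was the gene among the 10 called in ORF with NC whose mean in MT lay nearer to ORF than to NC on the log2 scale. It had 498, 244 and 481 normalized reads in ORF, 299, 401 and 172 in MT, and 149, 157 and 126 in NC. ORF and MT overlapped, and both lay above every NC library. The log2 fold change was 1.43 ± 0.25 (SE) for ORF with NC, 0.50 ± 0.33 for ORF with MT and 0.94 ± 0.24 for MT with NC. In MT with NC, a 1.91-fold difference, limma gave an unadjusted p of 0.00145 and an adjusted p of 0.744, so it did not pass. The value in MT with NC rests on a wide spread: it was 0.66 without MT replicate 2 and 1.27 without MT replicate 3. CHAC1 is rich in G and C (62.6% of its bases, against a median of 49.2% over genes), and in MT replicate 2, its highest MT library, deviations from the group mean rose with GC content across genes (r = 0.55 over 16622 genes, which are not independent replicates). With values adjusted for GC content and transcript length, the log2 fold change of CHAC1 in MT with NC was 0.74.

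ASNS, the enzyme that makes asparagine and a classical ATF4 target, differed little. It had 221, 178 and 207 normalized reads in ORF, 171, 141 and 146 in MT, and 153, 145 and 138 in NC. All ORF libraries lay above both other groups, with a log2 fold change of 0.46 ± 0.17 (SE) for ORF with NC and 0.40 ± 0.18 for ORF with MT. The gene row holds only part of the ASNS reads. It summed to 541 reads in ORF, 485 in MT and 468 in NC, whereas single ASNS splicing events counted several times as many, for example 2653 in ORF, 2225 in MT and 2600 in NC around the exon at chromosome 7, 97871719 to 97871996 (GRCh38, minus strand). AC079781.5, annotated on the same strand from 97851688 to 97972985, covers the whole of ASNS, and its own row held 7 to 16 reads per library in ORF, 11 to 26 in MT and 15 to 21 in NC. The sources used here do not give how reads shared by overlapping genes were counted.

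In the 3 ASNS events with over 1000 reads in every group, the scaled reads of ORF were 1.02, 1.10 and 1.23 times those of NC, against 1.39 times in the gene row, and those of MT were 0.941, 0.866 and 0.865 times those of NC, against 1.05 times. The splicing reads thus gave a smaller difference between ORF and NC than the gene row. The exon at 97871719 to 97871996 was included at 0.188 ± 0.00747 in ORF, 0.155 ± 0.00409 in MT and 0.151 ± 0.00289 in NC. Every ORF library lay above both other groups. The change in log2 odds for ORF with NC was 0.38 ± 0.17 (SE). It did not pass limma's threshold and is only a description.

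VLDLR, a lipoprotein and reelin receptor that stress of the endoplasmic reticulum is known to raise in liver, was barely detected. It had 0, 5 and 2 reads in ORF, 7, 2 and 4 in MT, and 1, 1 and 2 in NC. The MT libraries lay above the NC libraries on the normalized scale only. MT replicate 2 and NC replicate 3 both had 2 reads, which scaling turned into 1.93 and 1.83. The limma log2 fold change for MT with NC was 1.12 ± 0.58 (SE, adjusted p = 0.744). For ORF with NC it was 0.33 ± 0.71. Differences of VLDLR were not detectable at this depth.

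**Figure D2:**
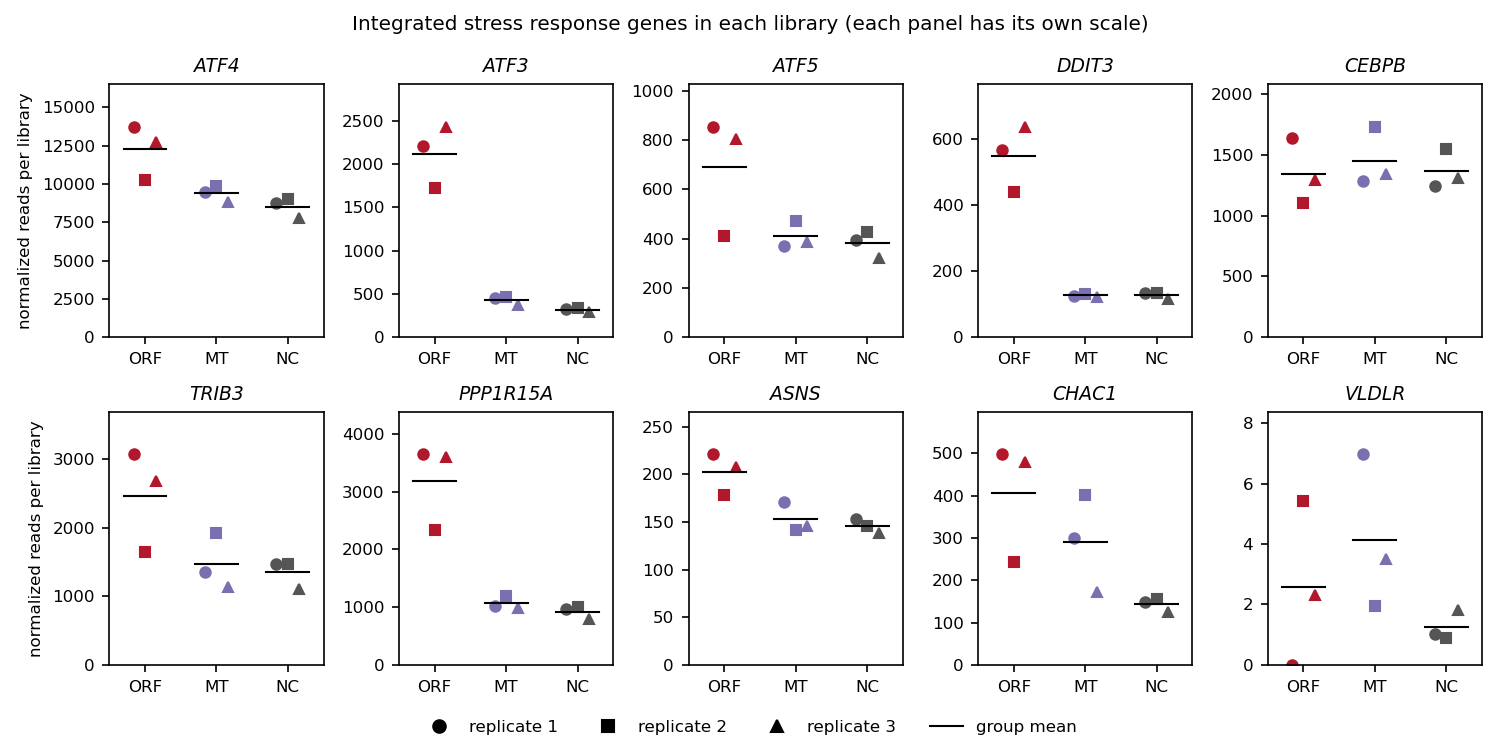
Normalized reads (y axis, starting at 0, with its own scale in each panel) of the 10 genes in the ORF, MT and NC libraries; symbols mark replicates 1 to 3 and the line is the group mean. ATF3, DDIT3 and PPP1R15A stand clear of both other groups in ORF, CHAC1 spreads from 172 to 401 in MT, and VLDLR stays under 7 in every library.

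Across the 10 genes, 4 (ATF3, DDIT3, PPP1R15A and CHAC1) were past limma's adjusted threshold of 0.05 in ORF with NC, where 103 of all 24662 genes tested (0.418%) were, 93 of them higher (0.377%). In 7 of the 10, all but ATF5, CEBPB and VLDLR, every ORF library lay above every NC library, as in 11.7% of all genes. CHAC1 was no longer past the threshold without ORF replicate 3 or any 1 NC library, with log2 fold changes then of 1.27 to 1.49. The median log2 fold change of the 10 was 0.81, beside -0.04 over all genes. These counts follow from the choice of the genes and are given only as a description. In the authors' deposited table, an adjusted p below 0.05 was listed for 7 of the 10, with TRIB3, ATF4 and ATF5 added, and for 1.8% of its genes.

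In MT with NC, a comparison that shares its NC libraries with the one above, 0 of the 10 genes passed limma's threshold, as did 0 of 25310 genes (0%). At an unadjusted p below 0.05 there were 2 of the 10, CHAC1 and ATF3, and 1183 of all genes. edgeR passed 0 of all genes and DESeq2 1, which was none of the 10, and the authors' deposited table had 1 (0.00322%) and none of the 10. In 3 of the 10, ATF3, CHAC1 and VLDLR, every MT library lay above every NC library, as in 5.57% of all genes. For VLDLR this came from scaling, as its lowest MT and highest NC library both had 2 reads. The median log2 fold change of the 10 was 0.13, beside 0.01 over all genes. Because the genes were chosen against these NC libraries, the counts and the median are not independent of that choice.

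In ORF with MT, which shares the ORF libraries, 3 of the 10 (ATF3, DDIT3 and PPP1R15A) were past the threshold, where 72 of 24506 genes (0.294%) were, 59 of them higher (0.241%). PPP1R15A was no longer past it without ORF replicate 3, MT replicate 1 or MT replicate 3, with log2 fold changes then of 1.45 to 1.52. In 5 of the 10, ATF4, ATF3, DDIT3, PPP1R15A and ASNS, every ORF library lay above every MT library, as in 10.2% of all genes. The median was 0.59, beside -0.03 over all genes. Because the genes were chosen with these ORF libraries, the counts and the median are again only a description.

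**Figure D3:**
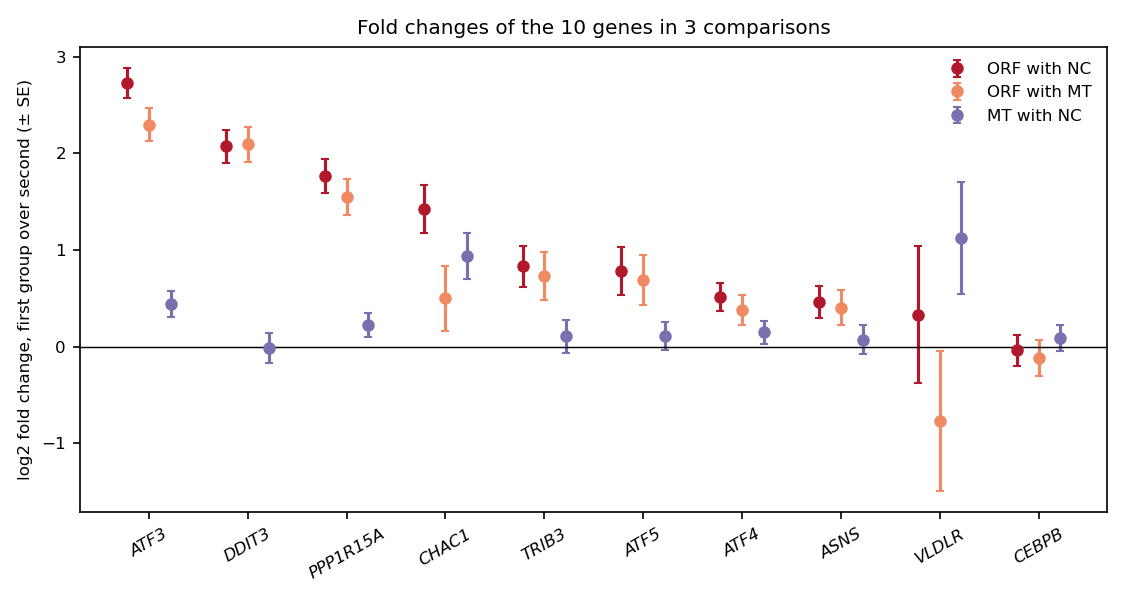
Log2 fold changes (y axis) with SE for ORF with NC, ORF with MT and MT with NC, with the 10 genes on the x axis ordered by ORF with NC. ATF3, DDIT3 and PPP1R15A are at 1.55 or above in both ORF comparisons and at 0.44 or below in MT with NC, while CHAC1 is at 0.94 in MT with NC.

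The order of the 10 genes per kb of transcript differed between groups. In NC, ATF4 was followed by CEBPB (699 ± 82.9 normalized reads per kb), TRIB3 (393 ± 61.4), PPP1R15A (298 ± 33.6), ATF5 (129 ± 18.4), DDIT3 (98.0 ± 7.29), ATF3 (78.1 ± 5.63) and CHAC1 (70.0 ± 7.76), and the last 2 of these overlapped. In ORF the second place was held by PPP1R15A (1033 ± 242), then TRIB3 (718 ± 215), CEBPB (687 ± 139), ATF3 (525 ± 89.9) and DDIT3 (419 ± 76.5), and the ranges of neighbours among these 5 genes overlapped. The MT order kept CEBPB second (742 ± 126), with CHAC1 (141 ± 55.9) level with ATF5 (139 ± 18.6). ASNS (45.3 ± 4.96 in ORF, 34.3 ± 3.62 in MT, 32.7 ± 1.68 in NC) and VLDLR were the lowest in every group, and the ASNS value holds only the reads of its gene row.

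Libraries within a group differed across most of the 10 genes at once. ORF replicate 2 was the lowest ORF library for 9 of the 10 genes and ORF replicate 1 the highest for 7. MT replicate 2 was the highest of its group for 8 and NC replicate 3 the lowest for 8. The deviations of the same libraries went with GC content across genes. The r was 0.61 in ORF replicate 1, -0.53 in ORF replicate 2, 0.55 in MT replicate 2 and -0.32 in NC replicate 3. In the other libraries r was -0.20 (ORF replicate 3), -0.33 (MT replicate 1), -0.39 (MT replicate 3), 0.09 (NC replicate 1) and 0.29 (NC replicate 2). MT replicate 1 was the lowest of its group for 2 genes and the highest for 2. ORF replicate 2 was the lowest also for ATF3 and ASNS, which are below the median GC content. Whether GC content accounts for these ranks was not tested. CEBPB (66.2%), CHAC1 (62.6%), TRIB3 (60.9%), ATF5 (60.0%), PPP1R15A (58.8%) and ATF4 (56.7%) were above the median GC content, and ATF3 (46.7%), ASNS (47.0%) and VLDLR (42.7%) below it. After adjustment for GC content and length 7 of the 10 genes were past the threshold in ORF with NC, where 8.01% of all genes were, and ATF3, DDIT3, PPP1R15A and CHAC1 were past it with and without the adjustment. ORF also differed from the other groups in PKM, a glycolytic enzyme, which took 4.51% of reads in ORF, 0.297% in MT and 0.271% in NC. LINC00266-1 itself had 9951 to 10310 reads per ORF library but 1 read in all of MT and 1 in all of NC, which goes against the label of MT. The part of PKM and of LINC00266-1 in the values of the 10 genes cannot be told apart.

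**Figure D4:**
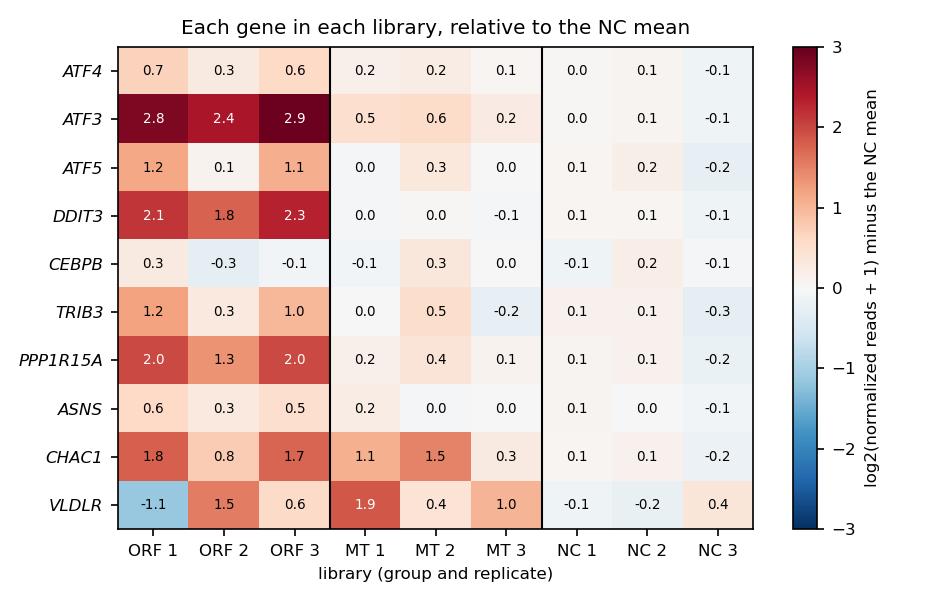
Difference of log2(normalized reads + 1) from the NC mean (colour and number) for the 10 genes (rows) in the 9 libraries (columns: ORF, MT, NC). ORF replicate 2 is lower than the other ORF libraries in all genes but VLDLR, and CHAC1 is higher than the NC mean in all 3 MT libraries, least in replicate 3.

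Among the genes whose pattern over the 9 libraries was most like the mean of the 10 (each standardized, with genes of at least 50 normalized reads on average) were FHL2 (Pearson r = 0.993), SESN2 (0.991), AMOTL2 (0.989), TBC1D22B (0.989), TRIM25 (0.988) and GBF1 (0.985). Such values were common, with 606 of 12353 genes at 0.9 or more, and all points share the split into 3 groups and the library deviations given above. FHL2, for instance, averaged 1859 normalized reads in ORF, 1374 in MT and 1273 in NC. Among the 10 genes themselves, ATF4 followed the mean of the other 9 most closely (r = 0.988), while CEBPB (0.07) and VLDLR (-0.34) did not follow it.

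The wider pathway was described through 8 lists of 120 genes, of which 118 passed the filter on low values in ORF with NC. Here 3 of the 118 were higher in ORF at a limma adjusted p below 0.05, beside 0.377% of all genes, and 0 were lower. At an unadjusted p below 0.05 there were 43 of the 118, beside 3867 of all 24662 genes (15.7%). Of the list genes edgeR with TMM called 5 and DESeq2 23, beside 147 and 560 of all genes. The lists were set up with results of these data known. GADD45A, a growth arrest gene induced by ATF4 and by p53, averaged 4672 ± 315 normalized reads in ORF, 1606 ± 45.7 in MT and 1449 ± 54.3 in NC, and rose 3.21-fold in ORF with NC (log2 fold change 1.68 ± 0.12, SE, adjusted p = 5.15e-05). SESN2, an inhibitor of mTORC1 that ATF4 induces, averaged 1348 ± 318 in ORF, 686 ± 158 in MT and 556 ± 48.8 in NC, and rose 2.37-fold (1.25 ± 0.18, SE, adjusted p = 0.0125). HERPUD1, a part of the machinery that removes misfolded proteins from the endoplasmic reticulum, averaged 2006 ± 315 in ORF, 912 ± 112 in MT and 850.3 ± 37.2 in NC, and rose 2.33-fold (1.22 ± 0.14, SE, adjusted p = 0.00239). The SESN2 call was lost without ORF replicate 3 or without any 1 NC library, at adjusted p-values of 0.0657 to 0.145, and its fold change then stayed between 1.15 and 1.29 on the log2 scale.

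The sensors upstream of ATF4 gave no call: 0 of 9 eIF2alpha kinases and sensors passed in limma, and edgeR and DESeq2 called 0. At an unadjusted limma p below 0.05 there was 1 of the 9, beside 15.7% of all genes. The same share applies to the eIF2 and C/EBP lists below. The median log2 fold change of the sensors was -0.08, beside -0.04 over all genes. GCN1, which couples stalled ribosomes to the kinase GCN2, was at 0.27 ± 0.14 and EIF2AK1, the haem-regulated kinase HRI, at -0.08 ± 0.11 (SE). Of eIF2, eIF2B and phosphatase subunits 0 of 14 passed (median 0.22, 3 at an unadjusted p below 0.05, edgeR 0, DESeq2 1), with PPP1CA, the catalytic subunit that PPP1R15A recruits, at 0.29 ± 0.17 and EIF2S3, the gamma subunit of eIF2, at 0.15 ± 0.12. Of other C/EBP and ATF factors 0 of 17 passed (median 0.06, 1 at an unadjusted p below 0.05, edgeR 0, DESeq2 1), with CREB3L2 at -0.15 ± 0.13 and ATF6B at 0.13 ± 0.16.

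The metabolic targets of ATF4 had medians above that of all genes, without a limma call. Of 18 amino acid genes 0 passed, with 8 at an unadjusted p below 0.05 (15.7% of all genes) and a median of 0.30, while edgeR called 1 and DESeq2 3. SLC7A5, a transporter of large neutral amino acids, was at 0.63 ± 0.20 (SE, adjusted p = 0.183) and PYCR1, which makes proline, at 0.24 ± 0.19. Of 13 aminoacyl-tRNA synthetase genes 0 passed, with 7 at an unadjusted p below 0.05 (15.7% of all genes) and a median of 0.29 (edgeR 0, DESeq2 3), with AARS at 0.37 ± 0.15 and IARS at 0.05 ± 0.13. Of 25 other targets of ATF4 and CHOP, GADD45A and SESN2 passed (median 0.35), and SQSTM1, an autophagy receptor, was at 0.66 ± 0.16 (SE, adjusted p = 0.107) and TRIB1 at 0.08 ± 0.11. Single genes went the other way. The lowest log2 fold change was -0.88 ± 0.39 among the amino acid genes (SE, limma adjusted p = 0.309). Among the 25 other targets it was -1.19 ± 0.27 (SE, limma adjusted p = 0.0894).

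Of 16 genes of the ATF6 and XBP1 arm, HERPUD1 passed (median 0.31). HSPA5, the chaperone BiP, averaged 33092 ± 2664 normalized reads in ORF, 19188 ± 1036 in MT and 20526 ± 1398 in NC, a log2 fold change of 0.69 ± 0.14 (SE) with a limma adjusted p of 0.0643 and of 0.0387 in edgeR with TMM. HSP90B1, a further chaperone of the endoplasmic reticulum, was at -0.09 ± 0.19. Of 6 measured relatives and ligands of VLDLR 0 passed (median 0.06, 5 at an unadjusted p below 0.05 beside 15.7% of all genes, edgeR 0, DESeq2 2), with LRPAP1, a chaperone of these receptors, at 0.38 ± 0.15 (SE). In MT with NC 0 of the 118 list genes passed, and edgeR and DESeq2 called 0. At an unadjusted limma p below 0.05 there were 11 of the 118, beside 1183 of all 25310 genes (4.67%). In ORF with MT GADD45A and HERPUD1 passed, as 2 of 117, beside 0.294% of all genes.

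**Figure D5:**
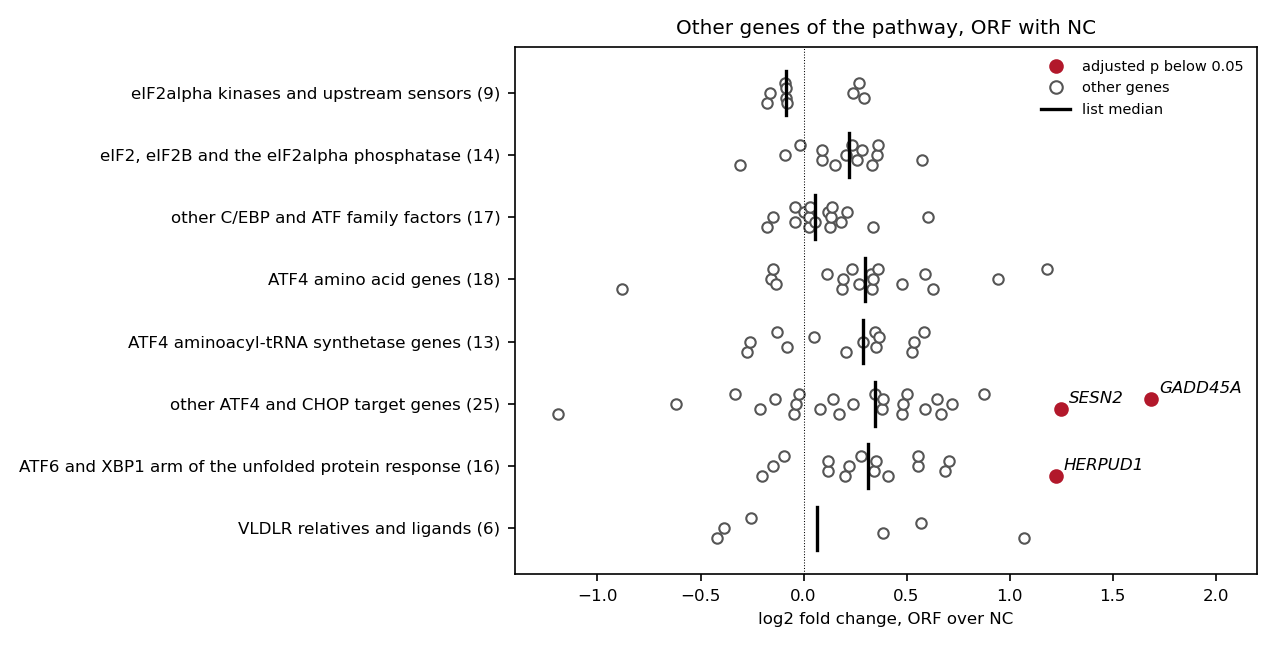
Log2 fold change of ORF with NC (x axis) for each measured gene of the 8 lists (rows, with the number of genes), with the list median as a line. Filled points, GADD45A, SESN2 and HERPUD1, passed limma's adjusted threshold, and the medians lie between -0.08 and 0.35.

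The splicing tables held 28 events of these genes beside NC for ORF and 26 for MT, of which DDIT3 had 12 in each. CHAC1, PPP1R15A, CEBPB and VLDLR had none. Reads were recovered for 23 and 22 events. After the filter on reads and levels 9 were tested in ORF with NC, 8 in MT with NC and 9 in ORF with MT. In ORF with NC 0 of the 9 were called by limma with a level difference of at least 0.05, where 13 of all 23185 events (0.0561%) were called. An unadjusted p below 0.05 was found for 7 of the 9 and for 8.48% of all events, and the DDIT3 events among them share reads. In MT with NC 0 of 8 were called and 0 had an unadjusted p below 0.05, where 3 of 21977 events (0.0137%) were called, and level differences lay between -0.02 and 0.11. In ORF with MT 3 of 9 were called, all of DDIT3, where 13 of 19107 (0.0680%) were. In the authors' deposited table, 8 of 23 events had an FDR below 0.05 in ORF with NC (5 of DDIT3, 2 of ATF3 and 1 of ASNS), where 7.79% of recovered events did, and 0 of 22 in MT with NC, where 6.27% did. The genes were chosen from ORF with NC, with the retained intron of DDIT3 already known. Event counts of both ORF comparisons are therefore given only as a description.

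The other tested DDIT3 events compare its 3' splice sites with each other. Use of the 110-base intron end against the 281-base end was 0.134 in ORF, 0.529 in MT and 0.424 in NC, and of the 163-base end against the 281-base end 0.133 in ORF, 0.455 in MT and 0.392 in NC. Against the 267-base end the levels were 0.0242 in ORF, 0.127 in MT and 0.125 in NC for the 110-base end, and 0.0198 in ORF, 0.0883 in MT and 0.103 in NC for the 163-base end. Each of these 4 mean levels was lower in ORF than in both other groups. Between the 267-base and the 281-base ends, which differ by 14 bases, the longer exon made up 0.769 in ORF, 0.869 in MT and 0.809 in NC, the smallest difference in log2 odds between ORF and NC among the tested DDIT3 events.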

How the data were processed

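Per the labels, Trizol was used for total RNA of the 9 HCT-116 samples (3 per group), sequenced on Illumina instruments. The submitters' processing notes name the builds GRCh38 and hg38. The sources used here do not give the aligner, the counter, the strand setting or the authors' tests. The authors' deposited gene tables hold a normalized signal per library, log2 fold changes and p-values. The authors' deposited splicing tables hold, as other units, reads of both forms with the authors' inclusion levels as a fraction from 0 to 1, and a signed score per event, the authors' difference of mean levels.

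Whole reads were recovered from the steps of the deposited signal: 100% of values lay within 0.1 of a whole read, and for the 29612 genes in both tables the NC reads matched exactly. Since the values are normalized, the edgeR test planned for counts was kept as an alternative. limma 3.58.1 (R 4.3.3; eBayes with trend) was run on log2(value + 1) within each table, with a minimum value of 1 in 3 or more libraries, with Benjamini-Hochberg adjustment over all genes and a threshold of 0.05. ORF with MT used recovered reads scaled over all 9 libraries. edgeR 4.0.16 with TMM on the recovered reads called 147 genes in ORF with NC, 0 in MT with NC and 102 in ORF with MT. DESeq2 1.42.0 was also run.

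In the splicing tables a spreadsheet had removed separators from cells. Splits were restored by matching the deposited levels within 0.0006, for 80.3% of 95054 events in the ORF table and 81.2% of 88104 in the MT table; 18769 and 16585 events were left out. Log2 odds of inclusion (pseudocount 0.5, mean of 20 reads per group, level between 0.05 and 0.95) were tested with limma. Cells do not name their libraries, so splicing reads were scaled by summed size factors per group; counting intervals (exact, 95%) cover counting error only. Annotation came from GENCODE 29 and promoters from RefSeq. Tests were checked on simulated data. The genes and lists were chosen with earlier results of these data known. Named are all 10 genes, list genes that passed in ORF with NC, the 2 most abundant genes of each list and the 8 most similar genes, of which some are not reported here; the ATF4 exon and the ASNS read sums were chosen after their values were seen.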

Additional observations from a re-analysis of the deposited data

How the results depend on the processing

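The number of genes called depended on the method and on single libraries. In ORF with NC, where limma called 103 genes, edgeR with RLE called 160, DESeq2 560, a fit over all 9 libraries 226, quantile normalization 210 and the GC and length adjustment 1974; leaving out 1 replicate gave 24 (without ORF replicate 3) to 1494 (without ORF replicate 2). Of the 10 genes 4 were called, and 7 with DESeq2 and with the GC and length adjustment, and 3 to 7 without 1 replicate. The CHAC1 call was lost without ORF replicate 3 or any 1 NC replicate, at log2 fold changes of 1.27 to 1.49. In MT with NC DESeq2 called 1 gene, and leaving out 1 replicate gave 0 of the 10 genes. In ORF with MT, with 72 genes called, DESeq2 called 429, all 9 libraries 458, quantile normalization 123, the GC and length adjustment 1762 and single omissions 12 to 544; of the 10 genes 3 were called, 6 with the GC and length adjustment and 2 to 4 without 1 replicate.

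With the replicate block the calls were 301 genes in ORF with NC, 35 in MT with NC and 35 in ORF with MT, and with the block and the GC and length adjustment 2451, 46 and 926. Of the 10 genes the block called 1 in MT with NC (CHAC1), and block with adjustment 7 in ORF with NC, 2 in MT with NC and 5 in ORF with MT. Deviations of same-numbered libraries had correlations of 0.11, -0.30 and 0.08 for ORF and NC, and -0.07, 0.28 and 0.27 for MT and NC. For ORF and MT they were -0.33, -0.45 and 0.14. As library deviations also went with GC content, these values cannot decide whether the numbers pair the samples. No paired analysis was possible for splicing because cells do not name their libraries. Of splicing events 1 was called in ORF with NC at 40 reads or with pseudocount 1, 0 to 1 without 1 library, and 1 to 2 in ORF with MT.

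In MT with NC the GC and length adjustment, with or without the block, turned ATF4 to -0.0167, ATF5 to -0.0837, CEBPB to -0.0902 and TRIB3 to -0.0802. Leaving out 1 replicate gave ATF5 -0.00986 to 0.19, DDIT3 -0.0742 to 0.0212, CEBPB -0.0522 to 0.18, TRIB3 -0.10 to 0.28 and ASNS -0.0130 to 0.12, none past the threshold. In ORF with NC quantile normalization turned EIF2S3 to -0.000696, IARS to -0.0933 and TRIB1 to -0.0745, the GC and length adjustment turned HSP90B1 to 0.00484, and single omissions gave ATF6B -0.0357 to 0.26, IARS -0.0187 to 0.16 and HSP90B1 -0.25 to 0.14. Level differences of 3 DDIT3 splice site events in MT with NC ranged from -0.0158 to 0.0157, -0.0296 to 0.00128 and -0.00113 to 0.132. The cause was not tested. Of 940 log2 fold changes of named genes under alternatives, 848 kept direction and side of the threshold and 31 turned direction. In the same direction, 50 came to pass the threshold and 11 no longer passed (CHAC1 and SESN2 in ORF with NC, PPP1R15A in ORF with MT). ATF4 in ORF with NC moved to 0.31 under quantile normalization. CEBPB, near 0 in both ORF comparisons, turned to at most 0.0920 in ORF with NC and 0.0582 in ORF with MT. VLDLR is limited by depth.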
